A study of Mus musculus with 3 samples.

Results

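The 35 genes described here encode proteins that copy DNA or prepare the cell for copying it. They were taken by name from the 54752 genes listed in each of 3 single-cell RNA-Seq (scRNA-Seq) count tables, of which 26962 had at least 1 unique molecular identifier (UMI, a tag that marks 1 captured mRNA molecule) in the cells analysed. The cells were sorted CD45+F4/80+7AAD– mononuclear phagocytes from the infarct and border zones of C57BL/6 mouse hearts, taken 3 days after surgery at postnatal day 10 (P10). All 3 groups had surgery at the same age: P10-sham_vehicle was sham operated and given vehicle, P10-MI_vehicle had a myocardial infarction (MI) and vehicle, and P10-MI_SB225002 had MI and daily SB225002, an antagonist of the chemokine receptor CXCR2. No genetic alteration was named for any group, animals of both sexes were used, and several hearts were pooled into each library. With 1 library per group, no test between conditions was possible, and the 95% intervals below cover counting error only, not the spread between animals.

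DNA replication starts at origins where the MCM helicase, the ring made of Mcm2 to Mcm7, is loaded in G1 with the help of Cdc6 and Cdt1 (licensing). At the start of S phase, Cdc45 and the GINS complex switch the helicase on, the primase-polymerase alpha complex lays primers, polymerases delta and epsilon extend them while clamped by Pcna, and Fen1 and Lig1 join the lagging strand. E2F factors and cyclin E drive this program, and the mRNAs of many of its genes climb before and during S phase. Cardiac resident macrophages are known to renew by division in the tissue, while monocytes arrive from the blood and bone marrow.

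E2F binding letters are a known feature of promoters in this family, so the RefSeq promoters of the members (GRCm38.p6, 250 bases before to 50 after the start of the gene) were searched for TTTCCCGC, TTTCGCGC, TTTGCCGC and TTTGGCGC on both strands, with overlapping matches counted. A window was found by symbol for 30 of the 35 members; Ccne2, Gins1, Gins2, Mcm4 and Pole had no entry. At least 1 match was present in 12 of the 30 (40.0%), against 704 of 27025 genes (2.60%), or 744 of 32851 windows (2.26%), across the table. By role, 6 of 7 licensing genes (Cdc6, Cdt1, Mcm3, Mcm5, Mcm6 and Mcm7) had a match, as did 3 of 5 chromatin genes (Dnmt1, Hells and Uhrf1) and 3 of 10 fork genes (Lig1, Pola1 and Pold1). No match stood in the windows of the 4 nucleotide supply genes, the 2 helicase activation genes or the 2 G1/S regulators that had one. Of the other replication genes 17 of 50 (34.0%) matched, so the share was not particular to the members, and among 27 mitosis genes 1 window matched, that of Cdk1. The promoters of Mcm5, Mcm6 and Mcm7 are printed as those of the MCM ring with 2 or more matches in a window, at least 1 of them before the start; a Dnmt1 window also had 2 matches and is not printed. Each runs 5′ to 3′ on the strand of the gene and ends 1 base before the start, and capitals mark the matches. Mcm5 lies on the plus strand at chr8:75109259-75109508, Mcm6 on the minus strand at chr1:128359706-128359955, and Mcm7 on the minus strand at chr5:138171884-138172133.
Mcm5: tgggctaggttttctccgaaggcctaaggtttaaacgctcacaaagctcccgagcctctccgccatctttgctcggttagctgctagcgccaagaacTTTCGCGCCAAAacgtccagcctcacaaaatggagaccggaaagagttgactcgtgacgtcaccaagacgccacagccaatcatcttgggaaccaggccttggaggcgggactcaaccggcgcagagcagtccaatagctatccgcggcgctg
Mcm6: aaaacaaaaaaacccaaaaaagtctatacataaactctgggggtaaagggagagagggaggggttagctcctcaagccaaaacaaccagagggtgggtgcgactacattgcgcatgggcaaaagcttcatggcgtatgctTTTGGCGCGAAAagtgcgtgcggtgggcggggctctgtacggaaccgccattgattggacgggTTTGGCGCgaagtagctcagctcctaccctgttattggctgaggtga
Mcm7: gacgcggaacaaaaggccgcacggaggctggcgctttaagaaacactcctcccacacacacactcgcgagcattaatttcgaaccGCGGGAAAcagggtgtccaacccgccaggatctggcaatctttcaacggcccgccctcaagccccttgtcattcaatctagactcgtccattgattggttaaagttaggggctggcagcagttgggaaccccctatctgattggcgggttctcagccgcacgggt
In Mcm5 and in Mcm6, a forward and a reverse match overlap, at 153 and 149 and at 110 and 106 bases before the start. A further Mcm6 match lies 47 bases before the start, and the second match of Mcm7 begins at base 17 after it, outside the printed stretch. A match is a description of the letters and not a measured binding site.

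Cells were kept with 500 to 30000 UMIs, 500 to 5000 genes and under 10% mitochondrial UMIs, which left 2351 sham, 3453 MI vehicle and 4744 SB225002 cells, with median depths of 8521, 6400 and 5654 UMIs. Classes were gates on marker genes, and each class name stands for its gate. C1q+ macrophages (C1qa, C1qb and C1qc) numbered 2033, 2410 and 3204 cells in the 3 libraries in that order. Their summed level of Adgre1 (which encodes F4/80), Ptprc (CD45), Csf1r and Cd68 was 2134, 2182 and 2067 CPM (UMIs of the gene or list per 1000000 UMIs of the class), with all 4 genes detected in each library. Ly6c+ monocytes (Ly6c2, Ccr2, Vcan, Ms4a4c and F10, with little C1q) numbered 10, 209 and 298 cells. Gates for fibroblasts (73, 207 and 158 cells) and endothelial cells (39, 61 and 169) also held cells, although the sort was for CD45+F4/80+ cells. Libraries shared 1260, 1306 and 1844 barcode sequences by pairs. After filtering, the expression profiles of equal barcodes had median correlations of -0.0029, 0 and -0.0018, against -0.0032, -0.0007 and -0.0045 for unequal ones.

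Among the gated classes, C1q+ macrophages had the largest share of cells rich in member UMIs, and this share was lower in the MI vehicle library than in either of the others. To compare cells of different depth, each cell was thinned to 2000 UMIs, and a cell was called member-high when at least 5 of these were of the 35 members. The name stands for this count alone: by genes outside the list, described below, most macrophages so called were in neither a histone-high nor a mitotic state. By that rule 403 of 1951 sham C1q+ macrophages were member-high (20.7%, exact binomial 95% interval 18.9 to 22.5). In the MI vehicle library 352 of 2176 were (16.2%, 14.7 to 17.8), and in the SB225002 library 590 of 2840 (20.8%, 19.3 to 22.3). The MI vehicle share was thus below the sham share by 4.48 percentage points (difference -4.48, Newcombe interval -6.89 to -2.08), and the SB225002 share was above the MI vehicle share by 4.6 points (2.41 to 6.76). Both differences lie outside counting error, and neither has a replicate check. Depth left out 82, 234 and 364 macrophages with under 2000 UMIs. Without thinning the shares were 56.2%, 40.0% and 45.2%, at median depths of 8738, 6458 and 5874 UMIs, and the level of the share moves with the cut (35.5%, 27.9% and 34.5% at 3 UMIs, 11.0%, 7.54% and 10.7% at 8).

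In both MI libraries, the member-high share of Ly6c+ monocytes was below that of C1q+ macrophages. It was 14 of 194 in the MI vehicle library (7.22%, 4.0 to 11.8) and 19 of 259 with SB225002 (7.34%, 4.47 to 11.2), a difference of 0.12 points (-5.29 to 5.16). Without thinning the monocyte shares were 29.7% and 26.2% (difference -3.49 points, -11.8 to 4.65). They were 11.9% and 14.7% at a cut of 3 UMIs, and 3.61% and 4.63% at 8. In the MI vehicle library the monocyte share lay 8.96 points under that of macrophages (-8.96, interval -12.6 to -4.12), and in the SB225002 library 13.4 points under it (-13.4, -16.7 to -9.28). Sham held only 10 such cells, of which 2 were member-high (2.52% to 55.6%), so no sham monocyte share could be read from the gate. With classes from clusters, 37 sham cells of the Ly6c+ class gave 27.0% (13.8 to 44.1), against 7.28% and 10% in the MI libraries. The cluster with most cells of that class (841) had a median of 23.5 C1q UMIs per 10000, against 19.7 for the Ly6c genes. That C1q level is above the macrophage gate of 16, so the cluster class is not one of monocytes as gated here. Ace+ Ly6c-low monocytes, the patrolling blood type, gave 0 of 7, 0 of 30 and 0 of 11 cells, which allows shares of up to 42.9%, 10% and 27.3% (3 cells of the total). Neutrophils, which have left the cycle when mature, gave 0 of 19, 0 of 66 and 0 of 126 (up to 15.8%, 4.55% and 2.38%) at median depths of 11777, 12832 and 5230 UMIs, which gives the share in a type expected to lack these mRNAs. B cells gave 1 of 17, 0 of 46 and 1 of 16. Cells of the T and NK gate were led by the basophil genes Mcpt8 and Prss34, were left unnamed, and gave 0 of 6, 0 of 16 and 1 of 6.

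**Figure D1:**
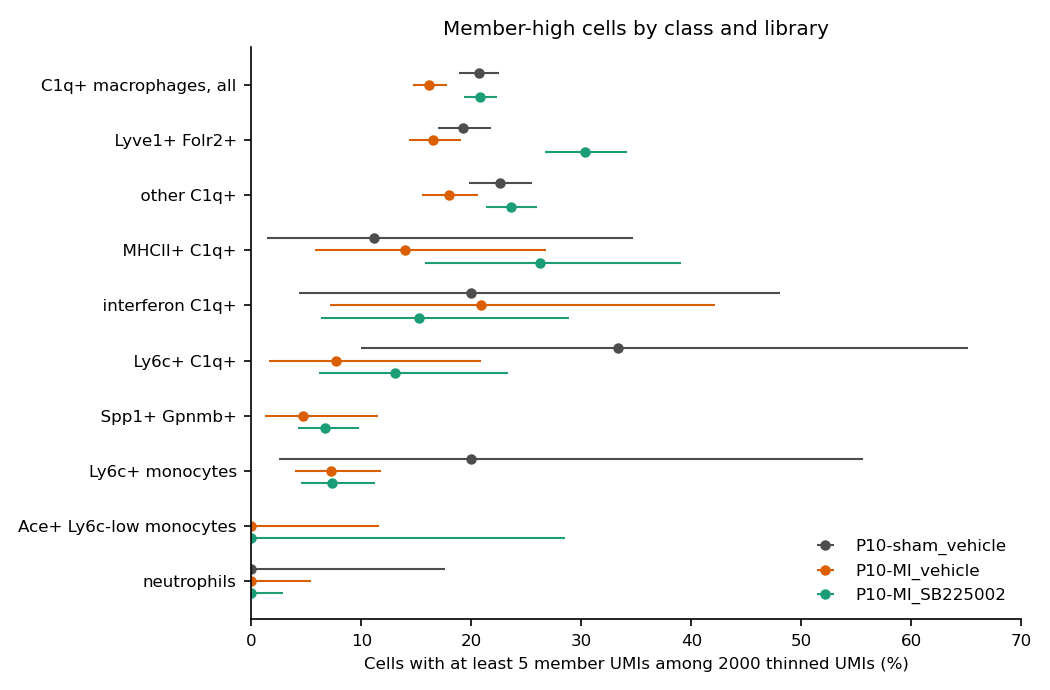
Share of member-high cells (x axis, %; at least 5 member UMIs among 2000 thinned UMIs) by class and sub-class of C1q+ macrophages (rows) and library (colours). Points are shares and bars are exact binomial 95% intervals; groups under 10 cells are not drawn. The 3 intervals of Lyve1+ Folr2+ macrophages centre on 19.3%, 16.5% and 30.3%, and in both MI libraries the points of Ly6c+ monocytes and Spp1+ Gpnmb+ macrophages lie left of those of Lyve1+ Folr2+ macrophages.

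Member UMIs formed a continuous range and not separate classes. The median C1q+ macrophage had 1 member UMI among 2000 in each library, and 28.2% of sham, 34.9% of MI vehicle and 28.3% of SB225002 macrophages had 0. Cells at 4 or 5 UMIs, next to the cut, numbered 197, 178 and 269. Member-high macrophages, with a median of 8, 7 and 8 member UMIs, carried 64.1%, 59.6% and 64.7% of all thinned member UMIs of the class. They also came from deeper cells (medians of 10983 against 8636 UMIs in sham, 7939 against 6779 in MI vehicle and 6981 against 6412 with SB225002). In monocytes the median was 0 in the MI vehicle library and 1 with SB225002, and 51.5% and 42.1% of cells had no member UMI.

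**Figure D2:**
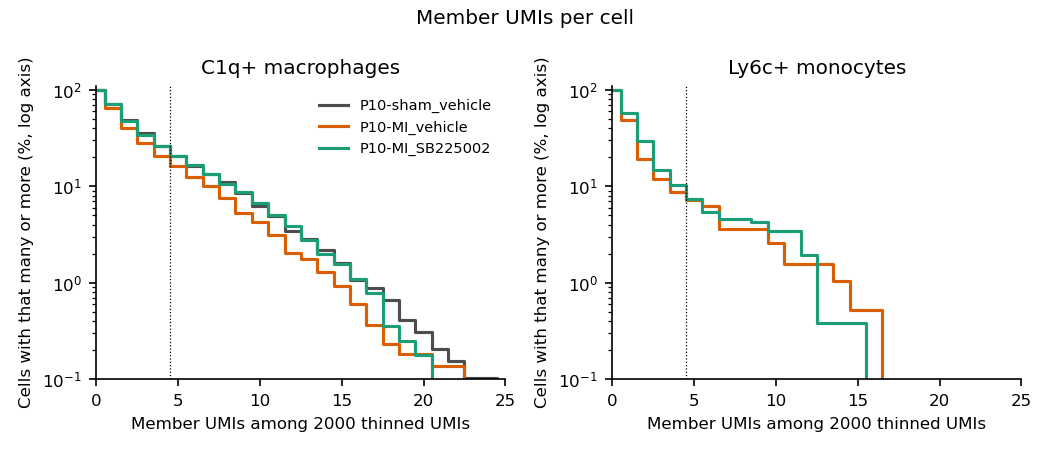
Share of cells (y axis, %, log scale) with at least the number of member UMIs on the x axis, among 2000 thinned UMIs per cell, in C1q+ macrophages and Ly6c+ monocytes of each library; sham monocytes (10 cells) are not drawn. The dotted line marks the cut at 5 UMIs, where macrophages lie at 20.7%, 16.2% and 20.8% and monocytes at 7.22% and 7.34%, with no step in any line at the cut.

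In C1q+ macrophages, the 35 members together were lower after MI with vehicle than after sham surgery, in each of the 6 roles. Their summed level was 1533 CPM in sham and 1196 in MI vehicle, a log2 ratio of -0.36 (exact conditional interval -0.38 to -0.33). The level was below sham for 35 of 35 members, with an interval below 0 for 31. A gene was counted as higher or lower where one level exceeded the other by at least 25%, a log2 ratio past 0.32 in size. By this measure 22 members were lower and 0 higher, where 11.1% and 9.99% of the 12136 genes with at least 50 UMIs were. The median member ratio was -0.36, against -0.05 over those genes. By role, the log2 ratio of summed UMIs was -0.44 for synthesis at the fork, -0.43 for helicase activation, -0.32 for licensing, -0.31 for nucleotide supply and uracil removal, -0.29 for chromatin and methylation copying and -0.27 for the G1/S regulators.

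Of the 4 helicase activation genes, Cdc45 and Mcm10 had the lowest ratios of the 35 members, and Gins1 and Gins2 did not. Cdc45, which joins the loaded MCM ring to make it an active helicase, stood at 11.7 CPM in sham (222 UMIs), 6.61 in MI vehicle (117) and 12.4 with SB225002 (268). MI vehicle was the low library for this gene, with a log2 ratio to sham of -0.83 (-1.16 to -0.50). Mcm10, a scaffold of helicase activation, had 19.1, 11.0 and 15.5 CPM (-0.79, -1.05 to -0.54), and Gins2, a GINS subunit, 37.0, 29.0 and 38.6 CPM (-0.35, -0.52 to -0.18). Gins1 had 31.3, 26.7 and 30.1 CPM (-0.23, -0.40 to -0.05).

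Licensing and fork genes were lower as well. Mcm6 stood at 93.0, 78.8 and 89.0 CPM (sham, MI vehicle, SB225002; MI vehicle over sham -0.24, -0.34 to -0.14), and Mcm3 at 65.9, 51.9 and 61.4 CPM (-0.35, -0.47 to -0.22). Cdt1, which escorts the MCM ring to origins, was the member nearest to sham, at 27.3, 25.9 and 32.5 CPM (-0.07, -0.26 to 0.11). Pcna, the sliding clamp and the member with the most UMIs (10.1% of all member UMIs), had 166, 117 and 134 CPM (-0.51, -0.59 to -0.43). Lig1, the ligase of the lagging strand, had 68.6, 51.1 and 59.0 CPM (-0.42, -0.55 to -0.30). The MI vehicle library was the lowest of the 3 for these genes.

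Among the nucleotide supply genes, Rrm1, the large subunit of ribonucleotide reductase, had 77.6, 65.0 and 83.0 CPM (-0.26, -0.37 to -0.14), and Tyms, which makes thymidylate, 45.2, 35.3 and 60.9 CPM (-0.36, -0.51 to -0.20). Ung, which cuts uracil out of DNA, had 13.4, 8.76 and 12.9 CPM (-0.62, -0.91 to -0.32). Dnmt1, the maintenance DNA methyltransferase, was among the 3 members nearest to sham, with 81.1, 71.5 and 72.3 CPM (-0.18, -0.29 to -0.07). Slbp, which binds the end of histone mRNAs, had 71.5, 61.0 and 66.6 CPM (-0.23, -0.35 to -0.11). Of the G1/S regulators, E2f1 had 41.5, 33.6 and 38.8 CPM (-0.31, -0.46 to -0.15). Ccne2 had 12.7, 10.7 and 10.7 CPM (-0.24, -0.52 to 0.04) and Ccne1 6.82, 6.22 and 9.58 CPM (-0.13, -0.51 to 0.25), both within counting error between sham and MI vehicle.

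**Figure D3:**
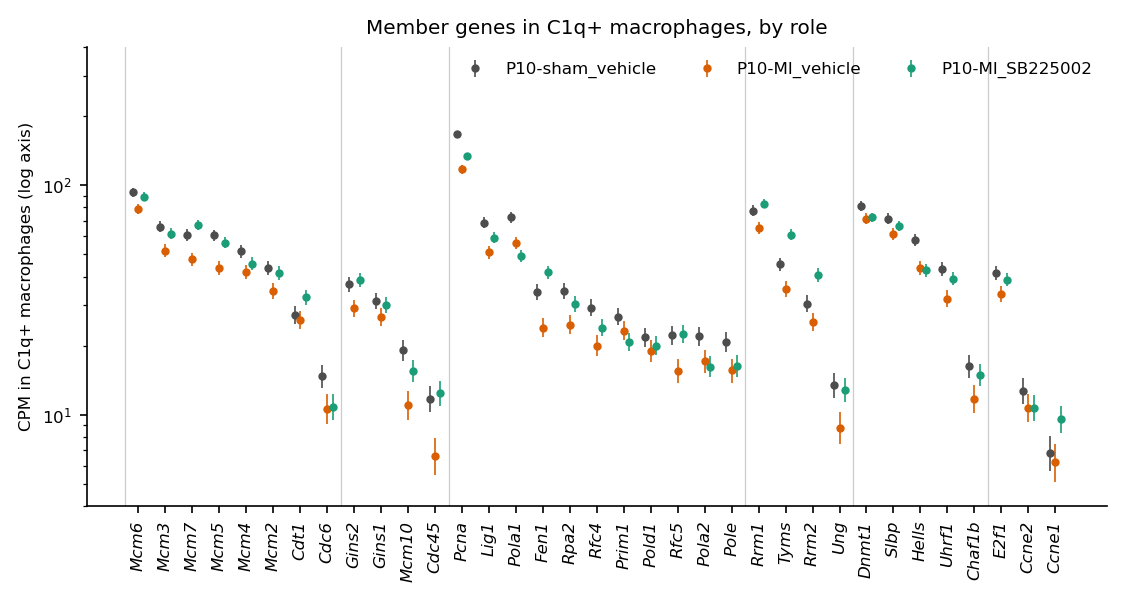
Level of each member (CPM of the class, log axis) in C1q+ macrophages of the 3 libraries (colours), ordered by role (licensing, helicase activation, synthesis at the fork, nucleotide supply and uracil removal, chromatin and methylation copying, G1/S regulators, parted by grey lines) and by UMIs within a role. Points are levels and bars exact Poisson 95% intervals; each of the 35 MI vehicle points lies below its sham point, as for Pcna at 117 against 166 CPM.

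Markers of other cells and measures of RNA quality also differed between these macrophage sums. The Ly6c monocyte list (9 of 9 genes, led by Ccr2 in sham and Plac8 after MI) summed to 130, 441 and 633 CPM. The neutrophil list (14 genes, led by S100a8 or S100a9) summed to 1337, 3022 and 3410 CPM with 13, 14 and 14 genes detected, Ly6g being at 0 in sham. The erythroid list (5 of 5 genes, led by Hbb-bs) gave 115, 14.6 and 12.7 CPM, the cardiomyocyte list 218, 153 and 179 CPM, and the fibroblast list 25.2, 39.8 and 38.3 CPM. The median mitochondrial share was 5.22%, 4.68% and 3.60%. The part of these differences in the member ratios was not tested.

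With SB225002, the members in C1q+ macrophages stood higher than with vehicle after MI, most in nucleotide supply and helicase activation. Both comparisons use the same MI vehicle library, so a high or low value in it enters both with opposite sign. The summed level was 1427 CPM with SB225002 against 1196 (log2 ratio 0.25, 0.23 to 0.28). Ratios were above 0 for 30 members and below 0 for 5; 14 members were higher by at least 25% and 0 lower, where 14.5% and 20.3% of the 12236 genes were. The median member ratio was 0.26, against -0.05 over those genes. Nucleotide supply genes had a log2 ratio of 0.55 (0.48 to 0.63), with 4 of 4 past 25%. Helicase activation gave 0.40 (0.30 to 0.50) with 3 of 4, and licensing 0.27 (0.22 to 0.32) with 3 of 8. The G1/S regulators gave 0.23 (0.10 to 0.35) with 1 of 3. Synthesis at the fork gave 0.18 (0.13 to 0.22) with 2 of 11, and chromatin copying 0.10 (0.04 to 0.16) with 1 of 5.

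The largest ratio was that of Cdc45 (6.61 to 12.4 CPM, log2 0.91, 0.59 to 1.23). Fen1, which trims the flaps of Okazaki fragments, stood at 34.3, 24.0 and 41.8 CPM, a ratio of 0.80 (0.64 to 0.97) that put the SB225002 library above sham as well. Tyms followed (0.79, 0.65 to 0.93). At the other end was the primase-polymerase alpha complex: Pola1, its catalytic subunit, had 72.6, 56.0 and 49.2 CPM (-0.19, -0.31 to -0.06), Prim1, the primase, 26.8, 23.3 and 20.8 CPM (-0.16, -0.36 to 0.03) and Pola2 21.9, 17.1 and 16.2 CPM (-0.08, -0.30 to 0.15). For these 3 genes the SB225002 library was the lowest of the 3, beyond counting error from MI vehicle for Pola1 alone. Pcna (0.19, 0.11 to 0.27), Mcm6 (0.18, 0.08 to 0.28), Mcm3 (0.24, 0.12 to 0.37), Lig1 (0.21, 0.08 to 0.33) and E2f1 (0.21, 0.06 to 0.36) lay near the median. Dnmt1 (0.02, -0.09 to 0.13) and Ccne2 (-0.00, -0.28 to 0.28) did not differ beyond counting error.

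**Figure D4:**
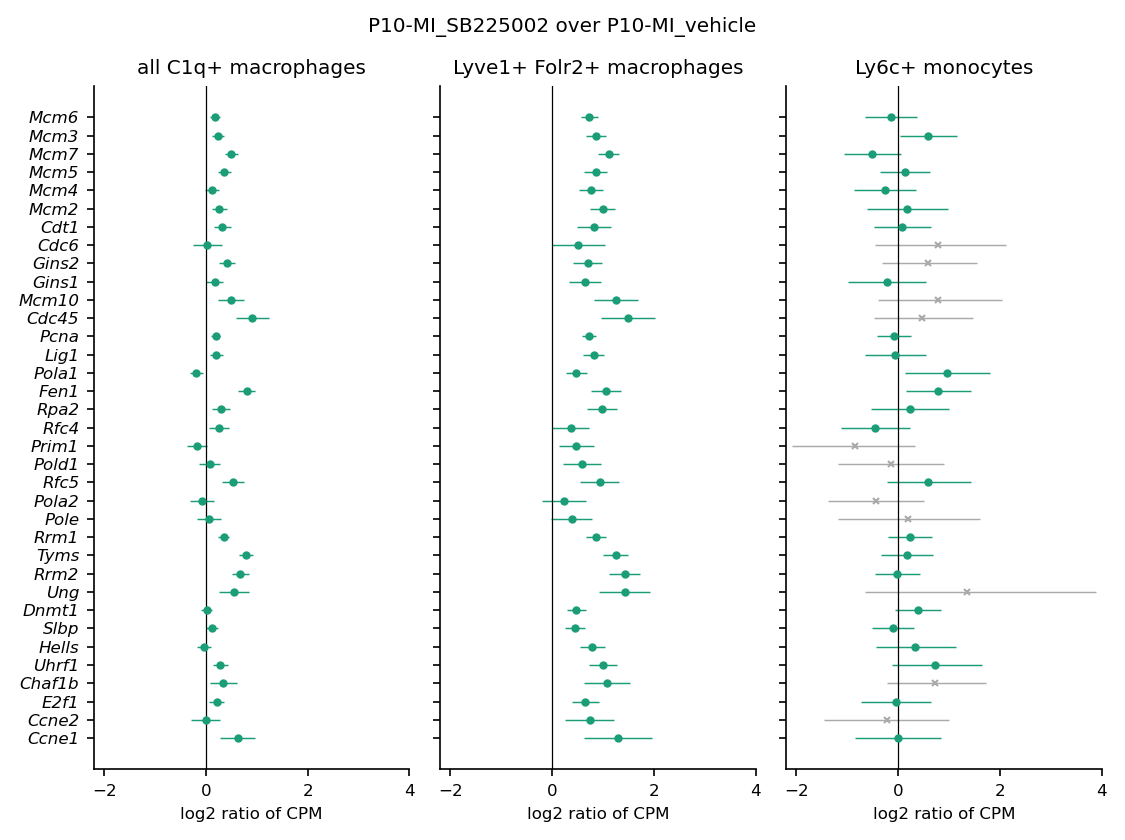
log2 ratio of the level with SB225002 over MI vehicle for each member (rows, ordered as by role above) in C1q+ macrophages, in Lyve1+ Folr2+ macrophages and in Ly6c+ monocytes. Points are ratios and bars exact conditional 95% intervals, grey crosses are members with under 50 UMIs in the 2 sums, and the line at 0 marks equal levels; points in the middle panel lie right of 0 for 35 members, around a median of 0.82, against 0.26 in the left panel.

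Sub-classes of C1q+ macrophages differed in their member-high shares, which were lowest in Spp1+ Gpnmb+ macrophages, an infarct type, in both MI libraries. Lyve1+ Folr2+ macrophages (Lyve1, Folr2, Cbr2, Cd163, Timd4, F13a1, Gas6 and Fcna, the resident perivascular type) gave 204 of 1058 cells in sham (19.3%, 16.9 to 21.8), 164 of 991 in MI vehicle (16.5%, 14.3 to 19.0) and 186 of 613 with SB225002 (30.3%, 26.7 to 34.2). Macrophages outside the other gates gave 22.6%, 18.0% and 23.6%. Their leading genes included the cycle genes Ube2c and Hist1h2ab, and whether this group holds more cycling cells than the others was not tested. Spp1+ Gpnmb+ macrophages gave 4 of 86 cells in MI vehicle (4.65%, 1.28 to 11.5) and 23 of 346 with SB225002 (6.65%, 4.26 to 9.81), and sham held 5 of them. Macrophages that still carried monocyte genes (Ly6c+ C1q+) gave 4 of 12 cells in sham (33.3%, 9.92 to 65.1). They gave 3 of 39 in MI vehicle (7.69%, 1.62 to 20.9) and 9 of 69 with SB225002 (13%, 6.14 to 23.3). The MHCII+ macrophages gave 2 of 18 (11.1%, 1.38 to 34.7), 7 of 50 (14%, 5.82 to 26.7) and 16 of 61 (26.2%, 15.8 to 39.1). For each of these sub-classes the intervals overlap between libraries. Interferon macrophages (Isg15, Ifit1 and 7 other induced genes) gave 3 of 15, 5 of 24 and 7 of 46.

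Lyve1+ Folr2+ macrophages had the largest difference between SB225002 and vehicle, 13.8 points (9.42 to 18.2), a sub-class singled out after its values were seen. Between MI vehicle and sham its share differed by -2.73 points (-6.11 to 0.66), within counting error at the main cut. The difference lay outside counting error at 3 UMIs (-5.33, -9.36 to -1.27) and at 8 (-3.02, -5.56 to -0.48). It did so too with no upper limit on UMIs and genes (-3.41, -6.77 to -0.03). The summed member level of this sub-class was lower in MI vehicle than in sham (log2 ratio -0.28, -0.32 to -0.24). Between SB225002 and vehicle, the other ungated C1q+ macrophages differed by 5.58 points (2.09 to 8.99). Spp1+ Gpnmb+ macrophages differed by 2.0 (-5.24 to 6.62) and MHCII+ macrophages by 12.2 (-4.24 to 27.5). Summed member levels were also higher with SB225002 than with vehicle in these sub-classes. The log2 ratio was 0.20 (0.17 to 0.24) in ungated and 0.56 (0.43 to 0.69) in Spp1+ Gpnmb+ macrophages. It was 0.42 (0.25 to 0.59) in Ly6c+ C1q+ and 0.24 (0.08 to 0.40) in MHCII+ macrophages. In interferon macrophages it was -0.11 (-0.35 to 0.13). Whether these differences or ratios differ from each other was not tested. In Lyve1+ Folr2+ macrophages the summed member level was 1465 CPM in sham, 1209 in MI vehicle and 2097 with SB225002, a log2 ratio of SB225002 over MI vehicle of 0.79 (0.75 to 0.84). Of the 35 members, 34 were higher by at least 25% and 0 lower, where 19.7% and 15.6% of 10146 genes were, and the median ratio was 0.82 against 0.01 over those genes. Cdc45 was again highest (6.85 to 19.3 CPM, 1.49, 0.96 to 2.03), before Rrm2, the small subunit of ribonucleotide reductase (21.0 to 56.5 CPM, 1.43, 1.13 to 1.74), and Ung (7.92 to 21.3 CPM, 1.43, 0.93 to 1.93). Pola2 (0.24, -0.19 to 0.66), Rfc4, a clamp loader subunit (0.37, -0.00 to 0.74), and Pole, the leading strand polymerase (0.39, -0.01 to 0.78), were lowest. Pcna stood at 118 CPM with vehicle and 195 with SB225002 (0.73, 0.59 to 0.87).

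The Lyve1+ Folr2+ sub-class made up 54.4% of C1q+ macrophages in sham, 45.1% in MI vehicle and 21.1% with SB225002, while the Spp1+ Gpnmb+ gate held 0.25%, 3.73% and 12.0%. With each library weighted to the sub-class makeup of MI vehicle, the member-high shares were 19.3%, 16.2% and 25.3%, and the member ratio of SB225002 over MI vehicle was 0.51 in place of 0.25. The same weighting gave MI vehicle over sham -0.23 in place of -0.36, a value that rests in part on 5 Spp1+ Gpnmb+ sham cells and 1 sham cell of a gate not reported here. Without the Lyve1+ Folr2+ cells the shares were 22.3%, 15.9% and 18.1%.

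In Ly6c+ monocytes, the summed member level was slightly higher with SB225002 than with vehicle, by an amount that moved with the processing. The summed level was 797 CPM in MI vehicle (1369 UMIs) and 862 with SB225002 (1732 UMIs), a log2 ratio of 0.11 (0.01 to 0.22). At least 50 UMIs in the 2 sums were reached by 24 members, of which 7 were higher and 2 lower by that measure, where 22.9% and 20.9% of 7164 genes were. The members' shares were thus near, and for the lower calls below, those of all genes. Pola1 was highest (19 and 43 UMIs, 0.95, 0.14 to 1.81), then Fen1 (33 and 66 UMIs, 0.77, 0.15 to 1.42) and Uhrf1, which recruits Dnmt1 to copied DNA (18 and 35 UMIs, 0.73, -0.13 to 1.64). Mcm7 (62 and 51 UMIs, -0.51, -1.07 to 0.05), Rfc4 (42 and 36 UMIs, -0.45, -1.13 to 0.23) and Mcm4 (48 and 47 UMIs, -0.26, -0.87 to 0.36) were lowest, each within counting error of 0. The summed ratio was 0.41 without the 6% of cells with the most UMIs and 0.29 with cells thinned. With classes from clusters, which take in cells with C1q, it was 0.28. The interval reached 0 with TMM scaling factors (0.08, -0.02 to 0.18) and DESeq2 factors (0.08, -0.02 to 0.19). Member-high monocytes were deep (medians of 13512 against 6847 UMIs in MI vehicle and 9285 against 6944 with SB225002), and the myeloid progenitor list, led by the granule protease Prtn3, summed to 1063, 236 and 345 CPM in the 3 monocyte groups, with Kit at 0 in each. Its part in the monocyte values was not tested.

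Within each MI library, monocytes had lower member levels than C1q+ macrophages. In sham, where the gate held 10 monocytes, the summed level was 1631 CPM in monocytes and 1533 in macrophages (log2 0.09, -0.09 to 0.26), within counting error of 0; the ratio was -1.30 without the deepest 6% of cells and -0.62 with cells thinned, so no sham direction could be read. In MI vehicle the log2 ratio of monocytes over macrophages was -0.59 (-0.67 to -0.51), with 26 members lower and 3 higher by the same measure, where 39.7% and 21.6% of 11126 genes were. With SB225002 it was -0.73 (-0.80 to -0.66), with 27 lower and 1 higher, where 37.2% and 19.9% of 11265 genes were. All genes had median ratios of -0.15 and -0.12 in these comparisons, against -0.58 and -0.72 for the members. Pola1 (11.1 against 56.0 CPM, -2.34, -3.08 to -1.69), Ung (3 UMIs, 1.75 against 8.76 CPM, -2.33, -4.62 to -0.75) and Uhrf1 (10.5 against 32.1 CPM, -1.61, -2.38 to -0.94) were the lowest in MI vehicle monocytes. With SB225002 these were Prim1 (5.48 against 20.8 CPM, -1.92, -2.94 to -1.07), Ung (4.48 against 12.9 CPM, -1.52, -2.66 to -0.58) and Pole (5.97 against 16.3 CPM, -1.45, -2.42 to -0.63). Ccne1, Rrm2 and Cdc45 were the 3 highest in both libraries. Ccne1, cyclin E1, stood at 14 CPM in monocytes and 6.22 in macrophages of MI vehicle (1.17, 0.47 to 1.82) and at 13.9 and 9.58 with SB225002 (0.54, -0.08 to 1.12). Rrm2 stood at 48.3 against 25.4 CPM in MI vehicle (0.93, 0.57 to 1.27) and 47.8 against 40.7 with SB225002 (0.23, -0.09 to 0.54). Cdc45 gave 0.49 and 0.06, both within counting error of 0. Without the deepest 6% of cells the summed ratio in MI vehicle was -1.06. Replication histone genes, described below, went the other way in both MI libraries. Cells of the monocyte gate also carried the genes of the Spp1+ Gpnmb+ gate (6 genes, led by Spp1). These summed to 8733 CPM in monocytes and 3496 in macrophages of MI vehicle, and to 15445 and 10926 with SB225002. Their part in the comparison was not tested.

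Other genes of the cycle, listed by function, were set beside the members. In C1q+ macrophages of MI vehicle against sham, 26 of 67 other replication genes were lower by the 25% measure and 0 higher, as were 19 of 30 mitosis genes (0 higher) and 24 of 36 replication histone genes (0 higher). Examples are Top2a, the topoisomerase that untangles chromosomes (181 CPM in sham, 130 in MI vehicle, -0.48, -0.56 to -0.40), Ube2c, a ubiquitin enzyme of mitotic exit (132 and 98.4 CPM, -0.43, -0.52 to -0.34), Nasp, a histone chaperone (105 and 79.3 CPM, -0.41, -0.51 to -0.31) and Hist1h2ap (697 and 354 CPM, -0.98, -1.02 to -0.93). Reads of one histone gene may be shared out among its close copies, so here and below each single value is uncertain; their summed log2 ratio was -0.74 (-0.76 to -0.72). Mki67, the proliferation marker, fell short of the measure (255 and 208 CPM, -0.29, -0.35 to -0.23). Pold4, a small subunit of polymerase delta, went the other way (56.1 and 68.3 CPM, 0.28, 0.16 to 0.40). Of 14 mitogen and G1 genes, 2 were lower and 2 higher, shares near the 11.1% and 9.99% of all genes. The 2 lower ones, named after their values were seen, were Ccnd1 and Myc. Ccnd1, cyclin D1, stood at 290 and 214 CPM (-0.44, -0.50 to -0.38) and Myc at 31.7 and 21.6 CPM (-0.55, -0.74 to -0.36). Ccnd2, added with them, did not differ beyond counting error (18.6 and 18.0 CPM, -0.05, -0.27 to 0.17). The 2 higher genes are not reported here. The 3 genes of this list with the most UMIs did not pass the measure: Maf, a factor known to restrain macrophage self-renewal, at 1307 and 1266 CPM (-0.05, -0.07 to -0.02), Csf1r, the receptor for the macrophage growth factor, at 905 and 898 CPM (-0.01, -0.04 to 0.02), and Igf1 at 399 and 440 CPM (0.14, 0.09 to 0.19). Of 10 cycle inhibitors 2 were lower and 1 was higher, with a median ratio of -0.05; the higher one was Btg1, an antiproliferative gene (145 and 207 CPM, 0.51, 0.44 to 0.58).

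With SB225002 over MI vehicle, where 14.5% of all genes were higher and 20.3% lower in C1q+ macrophages, 16 of 67 other replication genes and 17 of 30 mitosis genes were higher and 0 lower. Ube2c stood at 98.4 and 164 CPM (0.74, 0.66 to 0.82), while Mki67 was level (208 in both, -0.00, -0.06 to 0.06). Of 36 replication histone genes 2 were higher and 18 lower, and their summed log2 ratio was -0.03 (-0.05 to -0.01), beside 0.25 for the members. Of 10 cycle inhibitors 2 were higher and 4 lower. Among the lower was Btg2 (213 and 147 CPM, -0.53, -0.60 to -0.47). Of 14 mitogen and G1 genes 2 were higher and 2 lower, shares no larger than those of all genes; Maf, the gene of this list with the most UMIs, was among the lower (1266 and 576 CPM, -1.14, -1.17 to -1.11). Csf1r stood at 898 and 739 CPM (-0.28, -0.31 to -0.25) and Cdkn1a, the inhibitor p21, at 178 and 185 CPM (0.05, -0.02 to 0.12). In Lyve1+ Folr2+ macrophages 19.7% of all genes were higher and 15.6% lower. Of the lists there, 49 of 66 other replication genes and 27 of 30 mitosis genes were higher and 0 lower. Of 28 replication histone genes 11 were higher and 9 lower (summed log2 ratio 0.49, 0.45 to 0.53). Of 9 cycle inhibitors 3 were higher and 4 lower, and of 14 mitogen and G1 genes 4 were higher and 2 lower. Maf stood at 1830 and 1081 CPM (-0.76, -0.81 to -0.71). In these cells Ccnd1 stood at 218 and 298 CPM (0.45, 0.34 to 0.56).

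In Ly6c+ monocytes with SB225002 over MI vehicle, where 22.9% of all genes were higher and 20.9% lower, 23 of 28 mitosis genes were higher and 0 lower (1129 against 2021 CPM summed, log2 0.84, 0.76 to 0.92), beside 0.11 for the members. Ube2c stood at 86.2 and 220 CPM (1.35, 1.08 to 1.63), Mki67 at 115 and 187 (0.70, 0.45 to 0.96). Of 39 other replication genes 13 were higher and 3 lower, a share of higher genes not far from that of all genes. Of 22 replication histone genes 2 were higher and 9 lower (summed log2 ratio -0.21, -0.27 to -0.15). In MI vehicle, monocytes over macrophages gave 38 of 66 other replication genes and 18 of 30 mitosis genes lower, with 6 and 0 higher. Replication histone genes went the other way, with 18 of 35 higher and 6 lower (summed log2 0.32, 0.27 to 0.37). With SB225002, 43 of 67 other replication genes were lower and 4 higher, and 7 of 30 mitosis genes lower and 8 higher. Histone genes there were 12 higher and 2 lower of 34 (0.14, 0.09 to 0.19). The shares of all genes were as given above.

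To ask where in the cycle each member is expressed, C1q+ macrophages were sorted into states by genes outside the member list: mitotic at 5 or more thinned UMIs of the mitosis list, histone-high at 5 or more of the replication histone list, both, or neither. Replication histone mRNAs are known to be made while DNA is copied. Cells in neither state made up 77.9% of sham, 81.8% of MI vehicle and 74.5% of SB225002 macrophages, histone-high cells 2.0%, 2.99% and 2.50%, cells in both 12.5%, 8.09% and 12.5%, and mitotic cells 7.59%, 7.12% and 10.5%. The summed member level was 2397, 2144 and 2505 CPM in histone-high cells and 2500, 2487 and 2611 in cells of both, against 1363, 999 and 1192 in neither and 1179, 1310 and 1264 in mitotic cells. Member-high cells were 44.3%, 47.7% and 47.5% of cells in both states, 30.8%, 29.2% and 36.6% of histone-high cells, 14.2%, 13.5% and 14.1% of mitotic ones and 17.2%, 12.8% and 16.7% of those in neither. Cells in neither state thus made up 262 of 403, 228 of 352 and 353 of 590 macrophages called member-high. In MI vehicle monocytes, member-high cells were 2.58% of 155 cells in neither state and 40.0% of 15 in both. In monocytes, cells in both states were 7.73% with vehicle and 14.7% with SB225002, and mitotic cells 2.58% and 8.49%.

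By member, 35 of 35 were higher in histone-high cells than in cells of neither state in the 3 libraries, 33 were higher in histone-high than in mitotic cells, and 11 were higher in mitotic cells than in neither. These counts use no fold or interval, and the share over all genes was not computed, so they describe the members only. Histone-high sums came from 39, 65 and 71 cells, and in sham Cdc45 had 6 UMIs there and Pole 8. The state with the highest level was the same in the 3 libraries for 25 members, histone-high for 10 and both for 15, and neither or mitotic for 0. Rrm2 and Ccne1 lay farthest above neither state. Rrm2 stood at 12.9, 9.52 and 16 CPM in neither state, 92.5, 96.2 and 135 in histone-high cells and 30.7, 33.2 and 37.7 in mitotic cells, so the histone-high level was above neither by log2 2.84 to 3.34. For Ccne1 this was 2.55 to 3.22, for Tyms 1.99 to 2.70 and for Ccne2 1.92 to 2.35. Differences were smaller for Mcm2 (0.31 to 0.33), Mcm3 (0.34 to 0.78), Mcm6 (0.28 to 0.74), Cdt1 (0.26 to 0.75) and E2f1 (0.18 to 0.45), while Mcm5 gave 0.84 to 0.97. In mitotic cells Mcm6 was at 37.9, 76.0 and 57.2 CPM against 98.8, 75.5 and 87.1 in neither (-1.38, 0.01 and -0.60), so MI vehicle showed no such difference. Ung was lower in cells of both states (4.09, 2.47 and 7.16 CPM) than in neither (15.1, 9.37 and 14.1).

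**Figure D5:**
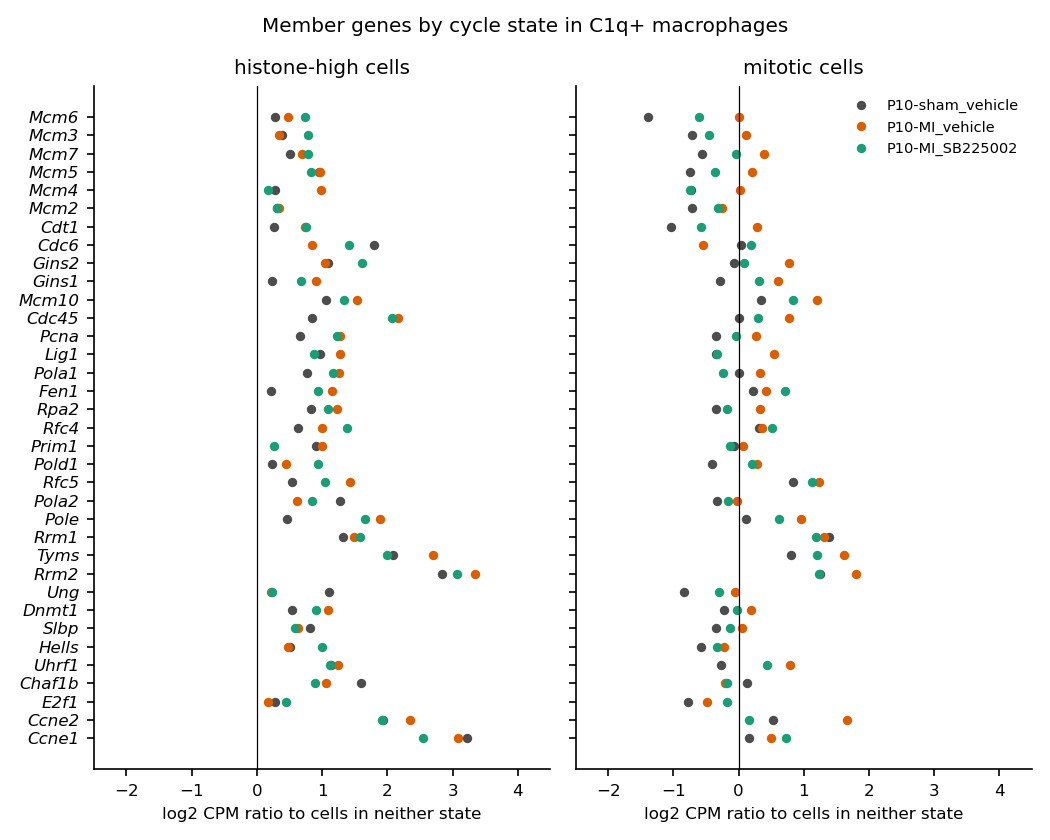
log2 ratio of each member's level (CPM) in histone-high cells (left) and in mitotic cells (right) over cells of neither state, in C1q+ macrophages, with a point per library (colours) and the line at 0 for equal levels. Points on the left lie right of 0 for 35 members, farthest for Rrm2 and Ccne1, while on the right most members straddle 0 or lie left of it, and Rrm1, Rrm2, Tyms and Rfc5 lie right of it.

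Member-high C1q+ macrophages, chosen by the members, were then set beside the other C1q+ macrophages for genes outside the list, as a description. Among 3281 genes with at least 50 CPM in one of the sums in every library, 406 were higher and 142 lower by at least 25% in the 3 libraries. Higher were 33 of 35 other replication genes, 13 of 13 replication histone genes and 9 of 20 mitosis genes that met this level. Among the 10 highest by their smallest ratio were Tcf19, Dtl, Clspn, Brca1, Dut, Brip1, E2f8 and Tk1. Tcf19, a G1/S gene, stood at 55.7, 63.6 and 59.5 CPM in member-high and 7.60, 6.03 and 6.80 CPM in other macrophages, and Dtl, which removes Cdt1 once S phase has begun, at 60.1, 55.6 and 55.3 against 8.71, 7.72 and 7.89 CPM. Clspn, Brca1 and Brip1 act at stalled or broken forks, and Dut and Tk1 supply nucleotides. The 10 lowest were Saa3, BC100530, Gm5483, Hist1h2bc, Stfa1, S100a9, Slfn5, S100a8, Mxd4 and Ypel3. Saa3, an acute phase gene, stood at 1.79, 144 and 27.9 CPM in member-high against 80.8, 948 and 174 in other macrophages. Mxd4, a MAX partner opposed to Myc, had 38.2, 41.6 and 39.2 against 97.9, 104 and 75.3 CPM. S100a8, S100a9, BC100530, Gm5483 and Stfa1 are also neutrophil genes, and the part of free RNA in their values was not tested.

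A few identity genes of macrophages, added after their values were seen, were set beside these. Spp1 stood at 2591 CPM in member-high and 8395 in other macrophages (log2 -1.70) with SB225002, 620 and 1928 in MI vehicle (-1.64) and 75.3 and 118 in sham (-0.64). Lyve1 stood at 163 and 104 CPM with SB225002 (0.65), 254 and 217 in MI vehicle (0.23) and 204 and 253 in sham (-0.31), and Mrc1, the mannose receptor, at 1544 and 911, 2138 and 1680, and 2466 and 2213 CPM. C1qa differed little, with 3345 and 3144, 3101 and 3200, and 3113 and 3356 CPM. Ccnd1 (393 and 179 CPM with SB225002, 356 and 183 in MI vehicle, 383 and 262 in sham) and its partner kinase Cdk4 (184 and 87.5, 152 and 69.5, and 150 and 82.6 CPM) were higher in member-high cells of each library.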

How the data were processed

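Raw UMI counts of 3 scRNA-Seq libraries were deposited by the authors as gene by cell matrices (29323567, 32498608 and 34235864 counts over 3390, 4511 and 5783 barcodes for sham, MI vehicle and SB225002); the submitters' processing notes name mm10 and Seurat 4.1.0. Cells were filtered as stated above and gated on summed marker UMIs per 10000 UMIs; gate thresholds were set after marker distributions, and before member values, were seen. Cells at the C1q gate that also passed a fibroblast, endothelial, mural, lymphocyte or neutrophil gate (119, 219 and 285) were set aside as mixed. No doublet caller was run. Sub-class gates were applied in the order Lyve1+ Folr2+, interferon, MHCII+ and Spp1+ Gpnmb+, and a later gate took over cells of an earlier one. The Lyve1+ Folr2+ sub-class thus leaves out cells that also passed a later gate. Cells that passed no gate were not used. Members and lists were chosen with earlier results of these data known. CPM are sums over a class divided by its UMIs, not by gene length, so levels are not compared between genes. Intervals are Clopper-Pearson (shares), Newcombe (differences), Poisson (levels) and conditional binomial (ratios); they treat UMIs as independent. Cells both histone-high and mitotic were kept as a state of their own. Named genes were the 2 members with the most UMIs per role, the 3 highest and 3 lowest per comparison, the 3 pathway genes with the most UMIs per list, and the 10 highest and lowest genes of member-high cells; Ccnd1, Ccnd2, Myc and the identity genes were added after their values were seen. One sub-class of C1q+ macrophages and some named genes are not reported here. Code was tested on simulated data. Python 3.11.15, scanpy 1.11.5 and scipy 1.17.1 were used, and edgeR 4.0.16 and DESeq2 1.42.0 gave alternative scaling factors only.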

Additional observations from a re-analysis of the deposited data

How the results depend on the processing

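For 36 results, 245 alternative values were computed. A reversal could be recorded only for a difference or ratio whose main interval lay on 1 side of 0, and none was. Shares per library, counts of members and results within counting error could not be recorded as reversed. The total of 245 therefore does not measure how often a direction held. Labels carry no replicate numbers. No paired analysis was possible because each group is 1 library. The MI vehicle minus sham share of macrophages was -16.3 points without thinning and -7.53 at a cut of 3 UMIs, and in Lyve1+ Folr2+ macrophages -14.7 without thinning and -0.41 with gate thresholds doubled (-2.73 as reported); the SB225002 minus MI vehicle share of these was 9.24 with gate thresholds doubled. The summed macrophage log2 ratio of MI vehicle over sham was -0.29 without the 6% deepest cells, -0.31 with TMM and -0.31 with DESeq2 factors, -0.33 with cells thinned and -0.23 at the vehicle makeup. That of SB225002 over MI vehicle was 0.19 with no upper limit on UMIs and genes, 0.32 with classes from clusters, 0.30 with gates doubled, with TMM and with DESeq2, 0.32 thinned and 0.51 at the vehicle makeup; in Lyve1+ Folr2+ macrophages it was 0.73 with gates doubled and 0.71 thinned. In monocytes it was 0.41 without the deepest cells, 0.28 from clusters and 0.29 thinned. Cluster values for monocytes, here and below, include the cluster with C1q above the macrophage gate. Monocytes over macrophages gave, without the deepest cells, with TMM, with DESeq2 and thinned, -1.06, -0.45, -0.44 and -0.86 in MI vehicle, -0.93, -0.63, -0.62 and -0.89 with SB225002 (-0.61 from clusters), and -1.30, 0.28, 0.32 and -0.62 in sham, where 10 monocytes set the value (0.09 as reported); TMM shifted these 3 by 0.13, 0.10 and 0.19. At 1.5-fold, 3 members were lower in MI vehicle than sham macrophages (2.72% of all genes were), 5 higher with SB225002 in macrophages (4.07%) and 4 in monocytes (8.49%), and 17 lower in MI vehicle monocytes than macrophages (27.7%). At the 25% measure with a minimum of 10 UMIs, 13 were higher and 4 lower with SB225002 in monocytes (24.7% and 26.8% of all genes). With the mitotic cut raised to 8 UMIs and the histone cut kept at 5, 7 members were higher in mitotic cells than in neither. At that setting 33 members were higher in histone-high cells than in neither, and 35 higher than in mitotic cells. The cause of these shifts was not tested. With 209 and 298 monocytes in the MI libraries, 11 members had under 50 UMIs there.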

Other observations

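Cells in the fibroblast and endothelial gates also held member UMIs, and these values belong to no comparison above. Fibroblasts gave 0 of 73 member-high cells in sham (up to 4.11%), 2 of 169 in MI vehicle (1.18%, 0.14 to 4.21) and 12 of 147 with SB225002 (8.16%, 4.29 to 13.8), with summed member levels of 396, 373 and 717 CPM. Endothelial cells gave 4 of 34 (11.8%, 3.30 to 27.5), 2 of 42 (4.76%, 0.58 to 16.2) and 13 of 137 (9.49%, 5.15 to 15.7), with 892, 421 and 1163 CPM. MHCII+ C1q-low cells gave 0 of 1, 0 of 25 and 3 of 47 (6.38%, 1.34 to 17.5), with 271 CPM in MI vehicle and 937 CPM with SB225002. In each of these classes the MI vehicle level was below the SB225002 level, as in C1q+ macrophages, from the same pair of libraries.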
